A study of Mus musculus with 16 samples.

Results

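Chemokine ligands and chemokine receptors were followed in the brachiocephalic artery, the branch of the aortic arch in which hypercholesterolaemic mice form plaques early. The members were the rows of the count table whose symbol is Ccl, Cxcl, Xcl or Cx3cl (ligands) or Ccr, Cxcr, Xcr or Cx3cr (receptors) followed by a number and any letters, with 6 further symbols left out by the rule. This gave 51 members, 37 ligands and 14 receptors, of 55356 named rows. The libraries came from 16 female mice, all lacking Apoe, the apolipoprotein that clears remnant lipoproteins, and each fed chow and then a cholesterol-rich Western-type diet. The 4 groups of 4 mice were Apoe-/-Mif-/- mice after 42 weeks of diet and Apoe-/- mice after 42 weeks, both aged 48 weeks, and Apoe-/-Mif-/- mice after 24 weeks and Apoe-/- mice after 24 weeks, both aged 30 weeks. Mif encodes macrophage migration inhibitory factor, a cytokine that binds some chemokine receptors, and its loss protects from atherosclerosis in several mouse models. Each library pooled a few frozen cross-sections of the whole vessel from a single mouse, so it mixed plaque, vessel wall and any tissue attached to them. Fewer cells of a type and less RNA per cell cannot be told apart in such samples.

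Chemokines are small secreted proteins that guide leukocytes along concentration gradients. They bind heptahelical receptors on the leukocyte, which signal through Gi proteins and are then internalised. In plaques, CC ligands made by macrophages, smooth muscle and endothelial cells draw in monocytes and T cells, while Cx3cl1 and Cxcl16 are made as membrane-anchored proteins that also hold cells in place.

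Library totals ran from 378066 to 8649525 counts, and 2 libraries had fewer than 1000000 (Apoe-/-Mif-/- library 2 and Apoe-/- library 1, both at 42 weeks). Values are given as CPM, counts scaled to a library of 1000000 with edgeR's TMM factor, and 1 count was worth between 0.109 and 2.11 CPM depending on the library. Mif itself was at 2.39 to 19.9 CPM in the 8 Apoe-/-Mif-/- libraries and at 23.2 to 301 CPM in the 8 Apoe-/- libraries. The value of 23.2 CPM was 11 counts in Apoe-/- library 1 at 42 weeks, the library of 378066 counts. All other Apoe-/- libraries held at least 105 CPM of Mif. Macrophage and smooth muscle markers were present in all libraries, and Apoe-/- library 4 at 24 weeks stood apart by its T cell and thymocyte markers (described with the receptors). The libraries of the Apoe-/-Mif-/- mice at 24 weeks carry names beginning with P7C and the other 12 names beginning with P7B. The labels do not say what these names stand for, and they cannot be told apart from the group in each comparison that includes it.

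The RefSeq table of mouse build GRCm38.p6 held promoter entries for 38 members, 13 of them among the 19 members tested. The 250 bases before the start are shown for Ccl8, Ccl9 and Ccl3, the members with such an entry among those whose groups did not overlap or whose p was among the 3 smallest in a comparison. Capitals mark matches on either strand to TGANTCA, a site of AP-1, or to TATAAA, the letters of a TATA box. Overlapping matches run together.
Ccl8, chr11:82114935-82115184, plus strand: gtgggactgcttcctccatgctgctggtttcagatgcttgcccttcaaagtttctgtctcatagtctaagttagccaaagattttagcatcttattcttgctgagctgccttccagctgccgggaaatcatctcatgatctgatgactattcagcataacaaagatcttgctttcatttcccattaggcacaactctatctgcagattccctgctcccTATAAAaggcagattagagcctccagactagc
Ccl9, chr11:83578637-83578886, minus strand: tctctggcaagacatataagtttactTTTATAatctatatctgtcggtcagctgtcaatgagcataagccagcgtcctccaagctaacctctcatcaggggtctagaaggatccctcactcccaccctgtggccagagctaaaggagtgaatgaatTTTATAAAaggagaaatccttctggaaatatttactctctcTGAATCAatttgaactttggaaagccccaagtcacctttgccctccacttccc
Ccl3, chr11:83649379-83649628, minus strand: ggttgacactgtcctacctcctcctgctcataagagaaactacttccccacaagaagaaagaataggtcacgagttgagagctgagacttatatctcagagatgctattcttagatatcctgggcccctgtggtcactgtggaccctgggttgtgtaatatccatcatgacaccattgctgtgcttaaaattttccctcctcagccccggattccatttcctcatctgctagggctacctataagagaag
Ccl8 held TATAAA from 32 to 27 bases before its start. Ccl9 held TATAAA from 92 to 87 bases before its start, TTTATA at 94 to 89 and 224 to 219, and the AP-1 match TGAATCA at 53 to 47, and the Ccl3 window held none of these letter strings. Of the 38 members with an entry, 6 held the AP-1 letters and 10 the TATA letters in either orientation, and of the 13 tested members among them 2 and 5 did. Counted by window, 6 and 10 of the 45 promoter windows of these members held the AP-1 and the TATA letters. Among all 32851 promoter windows of this length the shares were 6.75% and 12.4%. These counts were not tested.

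Of the 51 members, 19 passed the filter on low counts and were tested, 17 ligands and 2 receptors. Members pass that filter through the libraries in which they are high, so counts and medians over the tested members describe them and support nothing. Another 15 had at least 10 counts in all but did not pass the filter, 8 had 1 to 9 counts in all 16 libraries together, and 9 had no count in any library (Ccl1, Ccl20, Ccl21b, Ccl21d, Ccl26, Ccl27b, Cxcl11, Ccr6 and Ccr8). Each library held a count for 18 to 30 members. Their summed level was 1203 ± 560 CPM in 42-week Apoe-/-Mif-/- and 1681 ± 438 CPM in 42-week Apoe-/- arteries, and 1635 ± 373 CPM in 24-week Apoe-/-Mif-/- and 1294 ± 453 CPM in 24-week Apoe-/- arteries (SD, n = 4 each). Ligands alone summed to 1164 ± 562 CPM in 42-week Apoe-/-Mif-/- and 1626 ± 434 CPM in 42-week Apoe-/- arteries. At 24 weeks they summed to 1611 ± 391 CPM in Apoe-/-Mif-/- and 1099 ± 593 CPM in Apoe-/- arteries. The heat map of the members shows that most of the sum came from a few ligands in most libraries, with receptors at low levels. Receptors reached 689 CPM in Apoe-/- library 4 at 24 weeks, where that group had a median of 38.7 CPM.

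**Figure D1:**
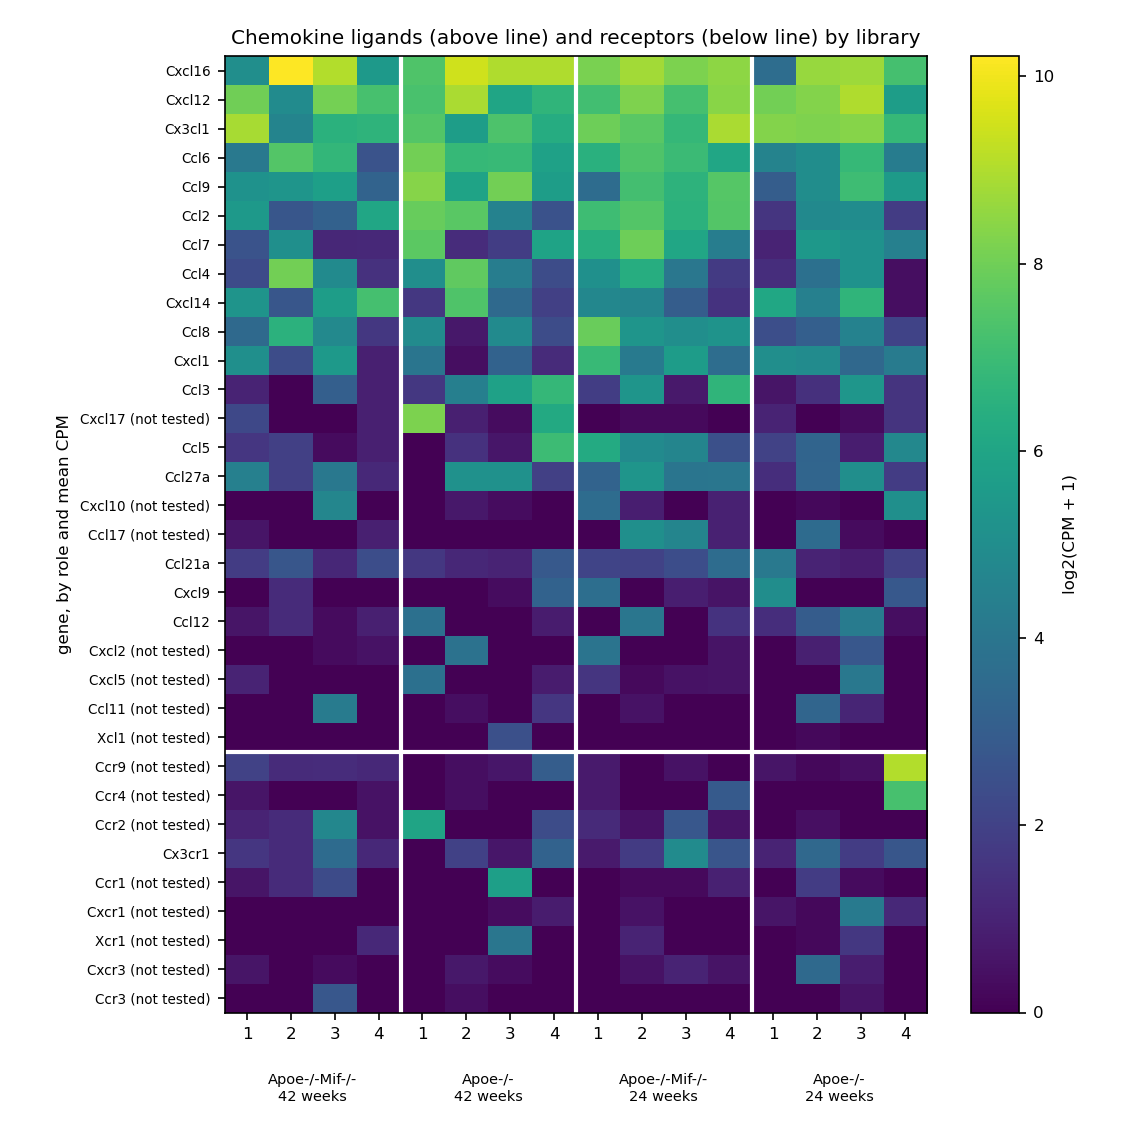
Level of 33 ligands and receptors with at least 10 counts, as log2(CPM + 1), in the 16 libraries (columns, grouped by genotype and weeks of diet). Rows are ordered by role and mean level, a white line separates ligands from receptors, and Cxcl16, Cxcl12 and Cx3cl1 form the brightest rows, while Ccr9 and Ccr4 are bright in a single Apoe-/- library at 24 weeks.

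Scaled to exonic length, Cxcl16 had the highest mean level of the tested members over the 16 libraries together, 125 ± 97.8 CPM per kb (SD). Ccl4 followed with 70.7 ± 117, Ccl8 with 70.5 ± 112, Ccl2 with 66.6 ± 69.9 and Ccl7 with 64.2 ± 91.5 CPM per kb. These neighbours in the order lie within each other's spread, since the SD over mice was near or above the mean of each. The order of the group means differed, which was not tested. In 24-week Apoe-/-Mif-/- arteries Ccl8 (167), Ccl7 (130.5) and Ccl2 (128 CPM per kb) had higher means than Cxcl16 (115 CPM per kb). Before scaling to length, Ccl8 was at 85.2 ± 98.2 CPM there and Ccl7 at 105 ± 101 CPM (SD, n = 4). The Ccl8 mean was raised by library 1 at 232 CPM, the others lying between 32.1 and 39.4 CPM. In 24-week Apoe-/- arteries Cx3cl1 (67.4 CPM per kb) came second after Cxcl16 (80.7 CPM per kb). At the low end, Cx3cr1 averaged 1.17 ± 1.63 CPM per kb.

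Ccl2, Ccl7 and Ccl8 are CC ligands that draw monocytes, and they had the 3 smallest p-values of the members for Mif loss at 24 weeks. Ccl2, the main ligand of the monocyte receptor Ccr2, was at 43.7, 5.57, 7.90 and 65.4 CPM in the 42-week Apoe-/-Mif-/- arteries, against 230, 191, 22.1 and 4.88 CPM in the 42-week Apoe-/- arteries. It was at 132, 176, 93.3 and 179 CPM in the 24-week Apoe-/-Mif-/- arteries, against 2.02, 27.5, 30.5 and 2.5 CPM in the 24-week Apoe-/- arteries. At 24 weeks every Apoe-/-Mif-/- artery lay above every Apoe-/- artery, and the 42-week Apoe-/-Mif-/- arteries all lay below those at 24 weeks, while the genotypes overlapped at 42 weeks. The 24-week means were 145 ± 40.8 CPM in Apoe-/-Mif-/- and 15.6 ± 15.5 CPM in Apoe-/- arteries (SD, n = 4 each), a ratio of 9.28. The fitted log2 fold change was 3.20 ± 1.32 (SE), with an edgeR quasi-likelihood p of 0.0204 and an adjusted p of 0.533 over all genes tested, so the difference did not pass the threshold of 0.05.

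Ccl7, which also acts through Ccr2, was at 5.14, 33.4, 1.20 and 1.29 CPM in 42-week Apoe-/-Mif-/- arteries, against 200, 1.48, 2.60 and 59.3 CPM in 42-week Apoe-/- arteries. It was at 83.2, 251, 64.7 and 19 CPM in 24-week Apoe-/-Mif-/- arteries, against 1.01, 42.5, 35.5 and 20.9 CPM in 24-week Apoe-/- arteries. The genotypes overlapped at both durations, and at 24 weeks 3 of the 4 Apoe-/-Mif-/- arteries lay above all Apoe-/- arteries. Ccl8, a monocyte and T cell attractant that in mice acts through Ccr8, was at 10.3, 94.7, 27.3 and 2.15 CPM in 42-week Apoe-/-Mif-/- arteries, against 29.5, 0.591, 28.8 and 4.19 CPM in 42-week Apoe-/- arteries. It was at 232, 39.4, 32.1 and 37.0 CPM in 24-week Apoe-/-Mif-/- arteries, against 4.55, 7.60, 22.3 and 3.13 CPM in 24-week Apoe-/- arteries. At 24 weeks the Ccl8 values of the genotypes did not overlap, the Apoe-/-Mif-/- values being higher, and 1 of them lay far above the other 3.

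Ccl3, Ccl4 and Ccl5 are inflammatory ligands that attract T cells and macrophages. Ccl3 was at 1.03, 0, 7.42 and 0.860 CPM in 42-week Apoe-/-Mif-/- arteries, against 2.11, 20.4, 56.1 and 111 CPM in 42-week Apoe-/- arteries. It was at 2.62, 39.6, 0.609 and 103 CPM in 24-week Apoe-/-Mif-/- arteries, against 0.505, 1.69, 40.0 and 1.88 CPM in 24-week Apoe-/- arteries. The 42-week genotypes overlapped in the single Apoe-/- artery at 2.11 CPM, and at 24 weeks both genotypes held high and low arteries. Ccl5, which T cells and platelets also make, was at 2.05, 2.79, 0.239 and 0.860 CPM in 42-week Apoe-/-Mif-/- arteries, against 0, 1.77, 0.520 and 128 CPM in 42-week Apoe-/- arteries. It was at 74.0, 28.5, 24.1 and 4.63 CPM in 24-week Apoe-/-Mif-/- arteries, against 3.03, 8.78, 0.762 and 26.6 CPM in 24-week Apoe-/- arteries. All 42-week Apoe-/-Mif-/- arteries lay below all those at 24 weeks, and the high 42-week mean of the Apoe-/- arteries came from 1 artery. Ccl5 had 9 counts over the 4 Apoe-/-Mif-/- libraries at 42 weeks together.

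Ccl4 was at 4.11, 263, 29.0 and 1.72 CPM in 42-week Apoe-/-Mif-/- arteries, against 31.6, 209, 19 and 4.19 CPM in 42-week Apoe-/- arteries. It was at 34.1, 81.4, 15.6 and 2.31 CPM in 24-week Apoe-/-Mif-/- arteries, against 1.52, 12.7, 36.0 and 0.313 CPM in 24-week Apoe-/- arteries. All 4 groups overlapped, and each genotype had 1 artery above 200 CPM at 42 weeks. Ccl6 and Ccl9 are rodent chemokines that act through Ccr1 and are made by macrophages and other myeloid cells.

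Ccl9 was at 35.4, 39.0, 54.1 and 8.60 CPM in 42-week Apoe-/-Mif-/- arteries, against 325, 59.1, 259 and 50.9 CPM in 42-week Apoe-/- arteries. It was at 11.1, 141, 95 and 184 CPM in 24-week Apoe-/-Mif-/- arteries, against 7.07, 30.9, 130 and 46.0 CPM in 24-week Apoe-/- arteries. At 42 weeks 3 of the 4 Apoe-/-Mif-/- values lay below all Apoe-/- values, and the fourth lay among them. Ccl6 was at 16.4, 177, 108 and 5.16 CPM in 42-week Apoe-/-Mif-/- arteries, against 266, 114, 119 and 55.8 CPM in 42-week Apoe-/- arteries. It was at 88.4, 169, 125 and 64.8 CPM in 24-week Apoe-/-Mif-/- arteries, against 22.7, 31.1, 113 and 18.8 CPM in 24-week Apoe-/- arteries. The Ccl6 values of the genotypes overlapped at both durations.

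**Figure D2:**
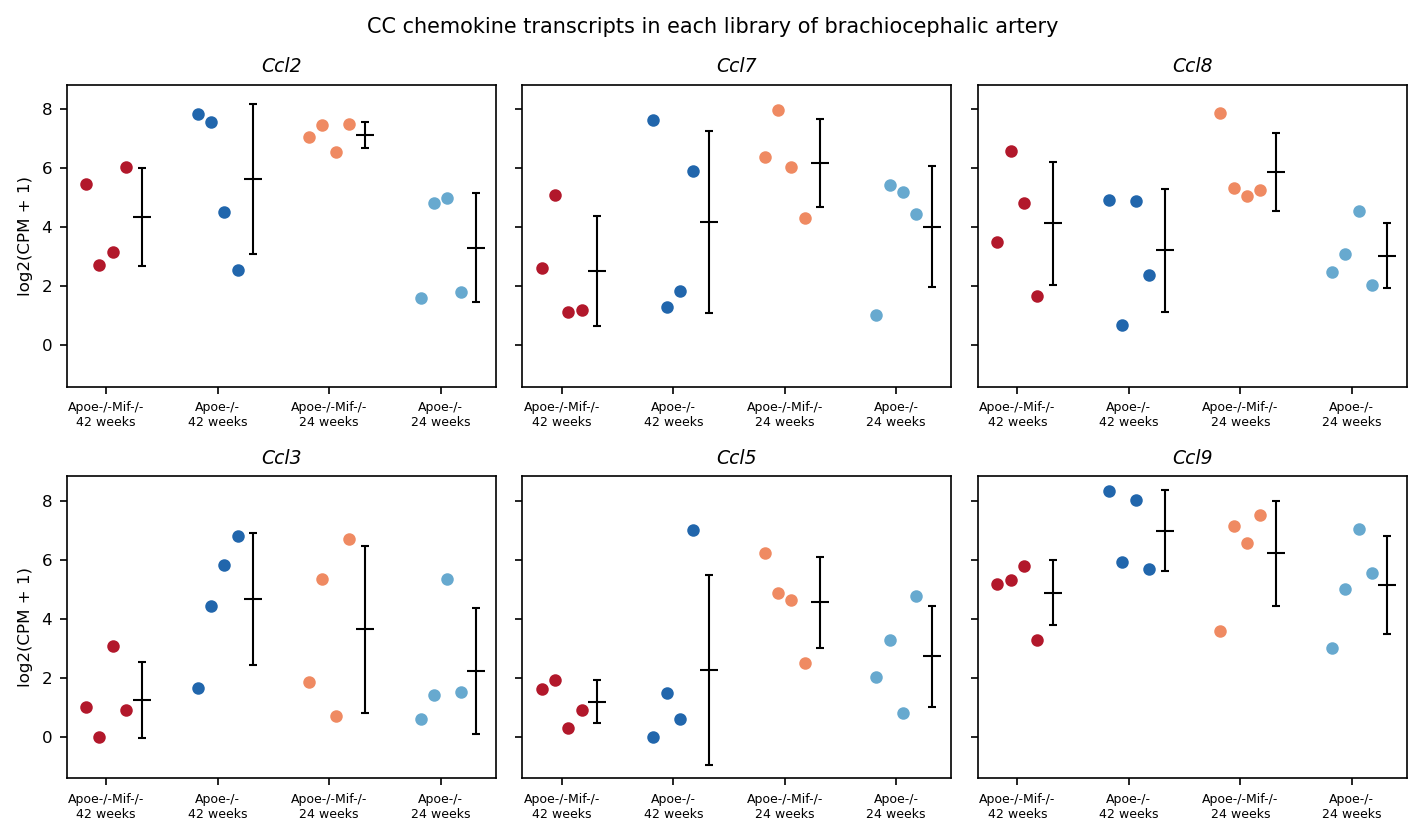
Levels of 6 CC ligands as log2(CPM + 1) in each library (points), with the mean and SD of the 4 libraries beside them, for the 4 groups on the x axis. The points of Ccl2 and Ccl8 do not overlap between genotypes at 24 weeks, and the highest point of Ccl5 is a single Apoe-/- artery at 42 weeks (128 CPM).

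Among the ligands of other classes, Cxcl16 is a transmembrane chemokine that also takes up oxidised lipoprotein and is the ligand of Cxcr6. It was at 31.8, 1187, 517 and 44.3 CPM in 42-week Apoe-/-Mif-/- arteries, against 169, 715, 513 and 507 CPM in 42-week Apoe-/- arteries. It was at 282, 450, 296 and 358 CPM in 24-week Apoe-/-Mif-/- arteries, against 11.6, 393, 425 and 146 CPM in 24-week Apoe-/- arteries. The groups overlapped in all 4 comparisons of groups, and the 24-week Apoe-/-Mif-/- arteries were the most alike. Exons of Cxcl16 overlap those of Zmynd15 on the other strand, and the library protocol keeps no strand, so reads of these genes cannot be told apart there.

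Cxcl12, which retains progenitor cells in bone marrow and is made by stromal and smooth muscle cells, was at 256, 29.2, 267 and 152 CPM in 42-week Apoe-/-Mif-/- arteries, against 156, 487, 62.9 and 103 CPM in 42-week Apoe-/- arteries. It was at 140, 305, 146 and 334 CPM in 24-week Apoe-/-Mif-/- arteries, against 266, 320, 505 and 50.3 CPM in 24-week Apoe-/- arteries. Cx3cl1, the membrane-anchored ligand of Cx3cr1 on endothelium, was at 473, 23.7, 90.0 and 98.5 CPM in 42-week Apoe-/-Mif-/- arteries, against 179, 51.1, 162 and 79.5 CPM in 42-week Apoe-/- arteries. All groups overlapped for both genes. Cx3cl1 was at 246, 191, 111 and 482 CPM in 24-week Apoe-/-Mif-/- arteries, against 316, 299, 329 and 115 CPM in 24-week Apoe-/- arteries. The tested CXC ligands Cxcl1 (a neutrophil attractant), Cxcl14 and Cxcl9 (an interferon-gamma-induced ligand of Cxcr3) reached at most 119, 166 and 30.8 CPM in any library. The tested CC ligands not given above stayed at or below 38.8 CPM: Ccl12, and Ccl27a and Ccl21a, whose counts are uncertain because near-identical gene copies exist and, for Ccl27a, because Il11ra1 overlaps it on the other strand.

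Cx3cr1 was 1 of the 2 receptors that passed the filter. This receptor of patrolling monocytes and some macrophages was at 2.05, 1.39, 10.8 and 1.29 CPM in 42-week Apoe-/-Mif-/- arteries, against 0, 2.95, 0.520 and 8.37 CPM in 42-week Apoe-/- arteries. It was at 0.655, 2.46, 29.6 and 5.55 CPM in 24-week Apoe-/-Mif-/- arteries, against 1.01, 9.79, 2.5 and 5.63 CPM in 24-week Apoe-/- arteries. The groups overlapped, the counts ran from 0 to 146 in a library, and Gm33858 overlaps Cx3cr1 on the other strand.

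For 6 members that did not pass the filter, over 80% of the summed CPM lay in 1 library that held at least 10 counts of them. Ccr9, which guides thymocytes and gut-homing lymphocytes, had 525 CPM (1679 counts) in Apoe-/- library 4 at 24 weeks, 96.9% of its sum, and Ccr4, carried by some T cells and thymocytes, had 150 CPM (481 counts) there, 94.7% of its sum. That library also held 235 CPM of Rag1, 182 CPM of Dntt and 160 CPM of Ptcra, which mark developing thymocytes, with 447 CPM of Cd4 and 506 CPM of Cd8a. The 11 T cell markers summed to 5463 CPM and the 8 thymocyte markers to 1073 CPM in it. Their part in the levels of Ccr9 and Ccr4 was not tested.

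The other 4 lay in other libraries. Ccr1, the receptor of Ccl3, Ccl5, Ccl6 and Ccl9, had 204 counts (53.0 CPM) in Apoe-/- library 3 at 42 weeks, where Xcl1 had 18 counts, its receptor Xcr1, which marks cross-presenting dendritic cells, 58 counts, and the atypical receptor Ackr1 83.2 CPM. Ccr3, the receptor of eosinophils, had 24 counts in Apoe-/-Mif-/- library 3 at 42 weeks, and Cxcr1 had 163 counts (17.7 CPM) in Apoe-/- library 3 at 24 weeks. Cxcr1 is carried by neutrophils, and the 8 neutrophil markers summed to 4.03 CPM in that library, with S100a9, Retnlg, Ly6g and Ltf at 0. Ccr2 reached 61.1 CPM (29 counts) in Apoe-/- library 1 and 25.9 CPM (108 counts) in Apoe-/-Mif-/- library 3, both at 42 weeks. Among untested ligands, Cxcl17 had 293 and 73.2 CPM in 2 Apoe-/- libraries at 42 weeks, and Ccl17 had 32.8 and 23.9 CPM in 2 Apoe-/-Mif-/- libraries at 24 weeks.

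The first question of the design was what loss of Mif did to these transcripts at each duration. After 24 weeks of diet, 0 of the 19 tested members passed at an adjusted p under 0.05 in edgeR, against 0.0470% of all genes tested (5 of 10634). At an unadjusted p under 0.05 there were 2, Ccl2 and Ccl8, against 7.33% of all genes, and the groups of the same 2 did not overlap, with higher values in Apoe-/-Mif-/- arteries, against 1.55% of all genes in that direction. No member lay wholly lower, against 2.29%. DESeq2 and voom passed no member either. The log2 fold change of Ccl8 was 3.17 ± 1.50 (SE, adjusted p = 0.654 by edgeR), and without Apoe-/-Mif-/- library 1 it was 1.93. That of Ccl7 was 2.06 ± 1.46 (adjusted p = 0.857 by edgeR), and 1.15 without Apoe-/-Mif-/- library 2. The median log2 fold change was 1.01 over the 19 tested members, of which 13 lay above 0, against -0.18 over all genes, of which 45.1% lay above 0. Of the 11 tested CC ligands 10 lay above 0, and the 6 other ligands had a median of -0.17. Summed macrophage markers ran from 9501 to 20976 CPM in the Apoe-/-Mif-/- and from 2226 to 18553 CPM in the Apoe-/- libraries at 24 weeks. All 12 markers of that list were tested, 10 of them with a log2 fold change above 0, and Mrc1 was at 0 in 3 of these 8 libraries. All 11 T cell markers lay below 0 (median -3.61), with 1 Apoe-/- library holding 5463 CPM of them against a group median of 124 CPM. The 7 tested white fat markers (median -4.58), 6 brown fat markers (-5.33) and 6 skeletal muscle markers (-7.76) also lay below 0. Of the 8 smooth muscle markers 6 lay above 0 (median 0.58). The part of any of these cells in the chemokine values at 24 weeks was not tested.

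After 42 weeks, 0 of the 19 passed in edgeR, as did 0 of all genes (0%), and 2 had an unadjusted p under 0.05, Ccl5 and Ccl3, against 17.3% of all genes. No member's groups were apart, against 1.17% of all genes higher and 1.03% lower. The 42-week means of Ccl3 were 2.33 ± 3.43 CPM in Apoe-/-Mif-/- and 47.4 ± 47.9 CPM in Apoe-/- arteries (SD, n = 4 each), with a log2 fold change of -4.24 ± 1.81 (SE, adjusted p = 0.229 by edgeR). The log2 fold change of Ccl5 was -4.53 ± 1.89 (SE, adjusted p = 0.223 by edgeR), and became 0.72 without Apoe-/- library 4, the artery at 128 CPM. Ccl9 averaged 34.3 ± 18.9 CPM in Apoe-/-Mif-/- and 173 ± 139 CPM in Apoe-/- arteries, and its log2 fold change was -2.33 ± 1.17 (SE, adjusted p = 0.298 by edgeR). DESeq2 passed 2 members, Ccl3 (adjusted p = 0.0302) and Ccl5 (adjusted p = 0.0415), while voom passed 0. The median log2 fold change of the 19 was -0.20, with 8 above 0, against 0.09 over all genes, with 51.8% above 0, and 8 of the 11 CC ligands lay below 0. Macrophage markers summed to 11076 to 35443 CPM in the Apoe-/-Mif-/- and 14822 to 38668 CPM in the Apoe-/- libraries at 42 weeks, with none of the 12 at 0. Of these 12 markers 3 had a log2 fold change above 0 and 9 below, with a median of -0.71. The 7 dendritic cell markers summed to 29.2 to 305 CPM in the Apoe-/-Mif-/- and 542 to 1741 CPM in the Apoe-/- libraries, which did not overlap, and the 4 of them that were tested all lay below 0 by value (median -2.57), none passing in edgeR. The sums of the other cell type lists overlapped between genotypes at 42 weeks. Itgax, which some macrophages also carry, averaged 110.3 CPM in the Apoe-/-Mif-/- and 867 CPM in the Apoe-/- libraries. It made up most of the dendritic sum, which averaged 126 and 965 CPM in the same groups. Clec9a, Cd209a and Siglech were at or near 0 (at most 0.698 CPM in a library). The 8 neutrophil markers summed to 0 to 24.7 CPM and 0.886 to 154 CPM in the same groups, and their 3 tested members lay below 0 by value (median -5.13). Of the 4 tested monocyte markers 3 lay below 0 (median -3.24), although their list averaged 16088 CPM in Apoe-/-Mif-/- and 6696 CPM in Apoe-/- libraries. Of the 8 endothelial markers 6 lay below 0 (median -1.23). Of the 7 fibroblast markers 6 lay above 0 (median 0.53), as did all 6 tested skeletal muscle markers (median 2.43). The part of these cells in the values of the chemokines was not tested.

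**Figure D3:**
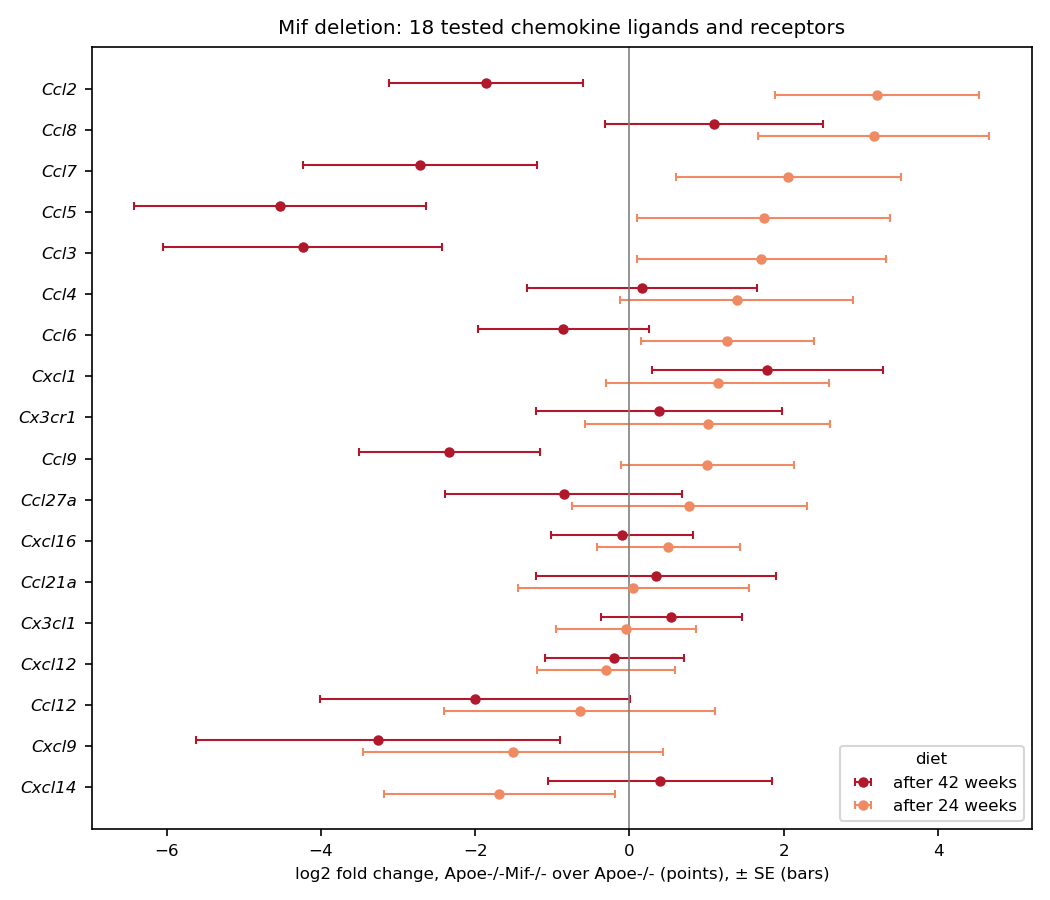
Fitted log2 fold changes (points) of Apoe-/-Mif-/- over Apoe-/- arteries, with their SE (bars), for 18 of the 19 tested members after 42 and after 24 weeks of diet, ordered by the 24-week value. Most CC ligands lie right of 0 at 24 weeks, with Ccl2 at 3.20, while Ccl5 at -4.53 and Ccl3 at -4.24 lie farthest left at 42 weeks, and no point passed the test.

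The design also asked whether the effect of Mif loss differed between the durations, tested as the fold change at 42 weeks over that at 24 weeks. Of the 19 members 0 passed in edgeR, against 0.686% of all genes (73). At an unadjusted p under 0.05 there were 5, against 14.2% of all genes, and all 5 were CC ligands with a negative difference, against 4.86% of all genes in that direction. Ccl2 had a difference of -5.06 ± 1.82 on the log2 scale (SE, adjusted p = 0.188 by edgeR), as its genotype difference was positive by value at 24 weeks and negative by value at 42 weeks. The differences were -6.27 ± 2.48 for Ccl5 (adjusted p = 0.229 by edgeR) and -5.95 ± 2.41 for Ccl3 (adjusted p = 0.240 by edgeR). That of Ccl5 was -0.95 without Apoe-/- library 4 at 42 weeks. That of Ccl3 was -8.94 without Apoe-/- library 3 at 24 weeks and -4.76 without Apoe-/-Mif-/- library 4 at 24 weeks. The differences of Ccl7 (-4.78) and Ccl9 (-3.34) had adjusted p-values of 0.284 and 0.339 by edgeR. DESeq2 passed Ccl2 (adjusted p = 0.0188) and Ccl3 (adjusted p = 0.0211), and voom passed 0. The median difference was -1.36 over the 19 members, 6 of them above 0, and 0.26 over all genes, 54.0% of them above 0. Of the CC ligands 10 of 11 lay below 0, and of the 6 other ligands 4 lay above 0. Macrophage markers had a median difference of -1.39, with 2 above 0 and 10 below, and none of the 12 passed in edgeR. Of the 4 tested dendritic cell markers 3 lay below 0 (median -2.03), and of the 4 tested monocyte markers 2 did (median -3.32), among them F10, which passed. Their part in the differences of the chemokines was not tested.

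The last question was how levels differed between 42 and 24 weeks of diet within a genotype, a comparison in which diet time and age cannot be told apart. It reuses the libraries of the genotype comparisons, so its values are given beside theirs and not as further evidence. In Apoe-/-Mif-/- arteries 0 of the 19 members passed in edgeR, against 0.122% of all genes (13), and 3 had an unadjusted p under 0.05 against 13.1% of all genes. Ccl2 and Ccl5 lay wholly lower at 42 weeks, against 3.03% of all genes in that direction, and 0 lay wholly higher, against 1.35%. The log2 fold changes were -4.53 ± 1.89 for Ccl5 (SE, adjusted p = 0.310 by edgeR) and -2.24 ± 1.27 for Ccl2 (adjusted p = 0.457 by edgeR). Ccl7 had -3.40 ± 1.55 and Ccl3 -3.85 ± 1.78, each with an adjusted p of 0.349 by edgeR. With each library left out, the Ccl7 value ran from -5.18 (without Apoe-/-Mif-/- library 2 at 42 weeks) to -2.35 (without Apoe-/-Mif-/- library 2 at 24 weeks). The Ccl3 value ran from -5.61 (without Apoe-/-Mif-/- library 3 at 42 weeks) to -2.54 (without Apoe-/-Mif-/- library 4 at 24 weeks). The median was -1.26 over the 19, with 4 above 0, and 0.12 over all genes, with 52.9% above 0, and 10 of the 11 CC ligands lay below 0. Of the 12 macrophage markers 9 lay above 0 (median 0.43). DESeq2 and voom passed 0 members.

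In Apoe-/- arteries 0 of the 19 passed in edgeR, with 0% of all genes, and 1, Ccl2, had an unadjusted p under 0.05, against 12.2% of all genes. No member's durations were apart, against 1.06% of all genes higher and 3.09% lower at 42 weeks. Ccl2 averaged 112 ± 115 CPM at 42 weeks and 15.6 ± 15.5 CPM at 24 weeks (SD, n = 4 each), with a log2 fold change of 2.82 ± 1.30 (SE, adjusted p = 0.375 by edgeR and 0.0465 by DESeq2). Ccl9 had 1.69 ± 1.15 (adjusted p = 0.577 by edgeR). Its value was 2.63 without Apoe-/- library 3 at 24 weeks and 1.25 without Apoe-/- library 1 at 42 weeks. Ccl4 had 2.38 ± 1.56 (adjusted p = 0.566 by edgeR), and without Apoe-/- library 2 at 42 weeks, which held 209 CPM, its value was 0.50. The median was 0.71 over the 19 members, with 11 above 0, and -0.12 over all genes, with 47.3% above 0. Of the CC ligands 9 of 11 lay above 0, as did 10 of the 12 macrophage markers (median 1.57), and voom passed 0 members. Of the 4 tested monocyte markers 3 lay above 0 (median 3.69). Other lists lay mostly below 0: 8 of 11 T cell markers (median -3.07) and 5 of 7 fibroblast markers (-1.01). So did all 6 tested brown fat markers (-4.62) and all 6 tested skeletal muscle markers (-5.81). For the T cell markers, the highest Apoe-/- library at 24 weeks held 5463 CPM, against a group median of 124 CPM. The part of any of these cells in the values for time in Apoe-/- arteries was not tested.

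Ligands that are neighbours on a chromosome and ligands that share cells were then compared across the 16 libraries by correlation of log2(CPM + 1), with 25 relations computed and permutation p-values (two-sided) adjusted over them. Ccl4 followed the summed macrophage markers at r = 0.785 (adjusted p = 0.00525) and Spearman's rho = 0.776 (adjusted p = 0.00662), and r was 0.752 without the 2 libraries farthest from the median and 0.791 within groups. Cxcl16 gave r = 0.753 (adjusted p = 0.0237) and rho = 0.821 (adjusted p = 0.00600), with r = 0.614 without the 2 farthest libraries and 0.830 within groups. These values are high among all genes: 0.367% of the genes tested had an r with the macrophage markers at least as high as that of Ccl4, and 0.517% one at least as high as that of Cxcl16. Ccl2 gave r = 0.385 (adjusted p = 0.443) and rho = 0.221 (adjusted p = 0.750), and r was -0.27 without the 2 farthest libraries. Ccl6 had r = 0.583 (adjusted p = 0.118) and rho = 0.647 (adjusted p = 0.0495). Of the 13 relations of a member with the macrophage markers 2 passed by r, those of Ccl4 and Cxcl16. The lowest r was that of Cx3cl1, -0.53 (adjusted p = 0.149), with rho = -0.571 (adjusted p = 0.117). For Cx3cl1 r was -0.78 without the 2 farthest libraries and -0.37 within groups, and 4.58% of the genes tested had an r at least as low. The plot against macrophage markers shows the 3 patterns for Cxcl16, Ccl4 and Ccl2.

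**Figure D4:**
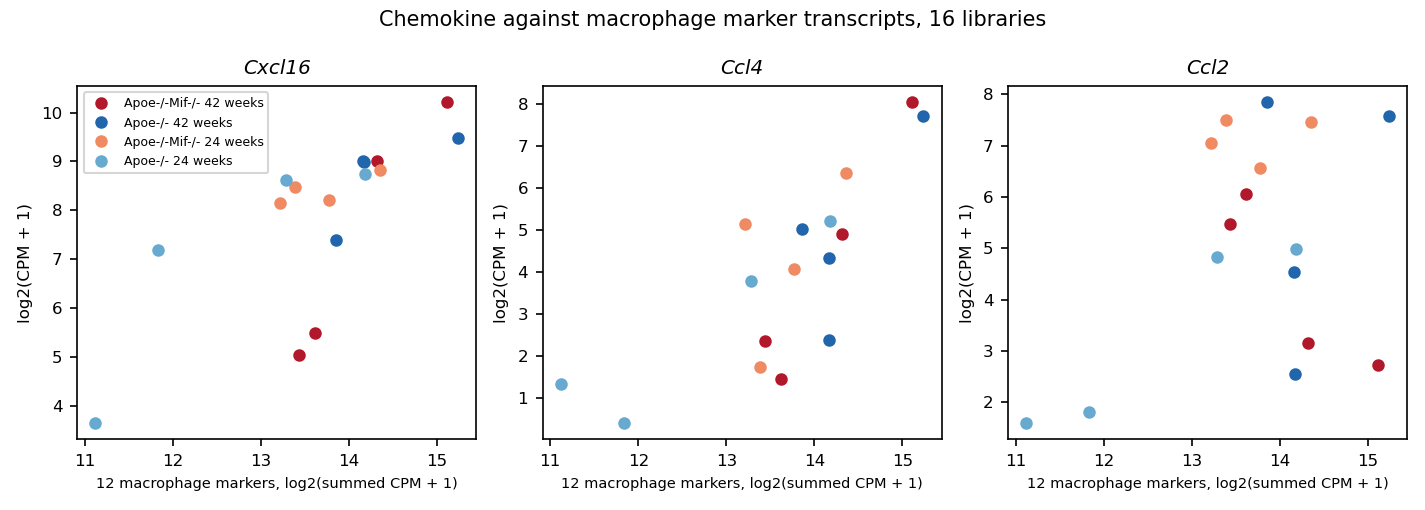
Level of Cxcl16, Ccl4 and Ccl2 (y axis, log2(CPM + 1)) against the summed CPM of 12 macrophage markers (x axis, log2(sum + 1)) in the 16 libraries, coloured by group. Cxcl16 and Ccl4 lie along a rising band (r = 0.753 and 0.785), while Ccl2 does not (r = 0.385).

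Chromosome 11 held 13 members, 10 of them tested, in the order Cxcl16, Ccl2, Ccl7, Ccl11, Ccl12, Ccl8, Ccl1, Ccl5, Ccl9, Ccl6, Ccl3, Ccl4 and Ccr10. Of the 8 relations between tested neighbours from Ccl2 to Ccl4, 1 passed. Ccl9 and Ccl6 correlated at r = 0.676 (adjusted p = 0.0340) and rho = 0.685 (adjusted p = 0.0362), with r = 0.585 without the 2 farthest libraries and 0.553 within groups. Ccl3 and Ccl4, which lie side by side, gave r = 0.0719 (adjusted p = 0.855) and rho = 0.159 (adjusted p = 0.750). Cx3cl1 and its receptor Cx3cr1 gave r = -0.101 (adjusted p = 0.810) and rho = -0.179 (adjusted p = 0.750).

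Other genes of the chemokine pathway were taken from listed groups, and 0 of them passed in edgeR in any of the 5 comparisons, apart from marker genes given below. Mif itself was among these genes and did not pass for its own loss at either duration. Its 24-week means were 12.8 ± 6.69 CPM in Apoe-/-Mif-/- and 141 ± 33.5 CPM in Apoe-/- arteries (SD, n = 4 each). At 42 weeks they were 9.35 ± 5.06 and 160 ± 116 CPM. Of the 28 genes of receptor signalling and desensitisation (G protein subunits, kinases and arrestins) 27 were tested, with 17 higher and 10 lower by value for Mif loss at 24 weeks and 14 and 13 at 42 weeks. Of the 11 genes that cut, bind or present chemokines 9 were tested, with 9 higher and 0 lower by value at 24 weeks and 5 and 4 at 42 weeks. Of the 16 genes of cytokines and factors that induce chemokines 12 were tested, with 5 higher and 7 lower at 24 weeks and 8 and 4 at 42 weeks. Of all genes tested, 45.1% lay above 0 at 24 weeks and 51.8% at 42 weeks. The medians of these lists, in the order given, were 0.26, 0.40 and -0.14 at 24 weeks, against -0.18 over all genes. At 42 weeks they were 0.23, 0.29 and 0.60, against 0.09 over all genes. The directions of the lists were not tested.

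Pf4, the platelet chemokine also called CXCL4, averaged 20.6 ± 36.2 CPM in 42-week Apoe-/-Mif-/- and 108 ± 83.2 CPM in 42-week Apoe-/- arteries, and 89.5 ± 94.3 CPM in 24-week Apoe-/-Mif-/- and 15.4 ± 18.1 CPM in 24-week Apoe-/- arteries (SD, n = 4 each). Its difference of effects between durations was -4.91 ± 2.08 (SE, adjusted p = 0.268 by edgeR). The summed platelet markers ran from 1.29 to 34.5 CPM in Apoe-/-Mif-/- and 0.886 to 69.1 CPM in Apoe-/- libraries at 42 weeks, and from 0.410 to 97.0 CPM in Apoe-/-Mif-/- and 0 to 37.2 CPM in Apoe-/- libraries at 24 weeks. Ccrl2, an atypical receptor that presents chemerin and does not signal, averaged 1.20 ± 0.519 CPM in 42-week Apoe-/-Mif-/- and 32.3 ± 28.9 CPM in 42-week Apoe-/- arteries, with a log2 fold change of -4.71 ± 1.81 (SE, adjusted p = 0.198 by edgeR). At 24 weeks Ccrl2 averaged 8.998 ± 12.3 CPM in Apoe-/-Mif-/- and 24.1 ± 41.0 CPM in Apoe-/- arteries, with a log2 fold change of -1.44 ± 1.55 (SE, adjusted p = 0.948 by edgeR). Ackr3, a scavenger of Cxcl12, averaged 46.0 ± 68.0 CPM in 42-week Apoe-/-Mif-/- and 85.0 ± 61.8 CPM in 42-week Apoe-/- arteries, and 98.8 ± 88.9 CPM in 24-week Apoe-/-Mif-/- and 28.5 ± 18.5 CPM in 24-week Apoe-/- arteries. Ddt, the homologue of Mif, had an edgeR log2 fold change for Mif loss of 3.13 ± 1.71 (SE, adjusted p = 0.339) at 42 weeks and of -2.66 ± 1.67 (SE, adjusted p = 0.830) at 24 weeks.

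Markers of tissue outside the vessel wall, and some markers of other cells, differed between groups. At 24 weeks Plin1, a coat protein of fat droplets, and the skeletal muscle genes Atp2a1, Myh4 and Tnnt3 fell in Apoe-/-Mif-/- against Apoe-/- arteries, each with an adjusted p of 0.0466 in edgeR. Plin1 rose at 42 against 24 weeks in Apoe-/-Mif-/- arteries (edgeR, adjusted p = 0.0401). The effect of Mif loss differed between durations for 12 marker genes in edgeR, with adjusted p-values between 0.0136 and 0.0492. Over all genes tested the share was 0.686% (73 of 10634). The effect was lower at 42 than at 24 weeks for the monocyte marker F10. It was higher for the T cell marker Trbc1 and the endothelial marker Kdr. The fat and skeletal muscle markers Plin1, Ucp1, Cidea, Cox8b, Elovl3, Myh4, Acta1, Tnnt3 and Atp2a1 also had a higher effect at 42 weeks. Kdr went against most of its list, as 6 of the 8 endothelial markers lay below 0 (median -0.51). Of the 11 T cell markers 9 lay above 0, as did all tested markers of fat and skeletal muscle. The highest Apoe-/- library at 24 weeks held 5463 CPM of the 11 T cell markers, against a group median of 124 CPM. The part of that library in the differences of Trbc1 and the other T cell markers was not tested. White adipocyte markers summed to 96.9 to 925 CPM in the Apoe-/-Mif-/- and 82.6 to 17652 CPM in the Apoe-/- libraries at 24 weeks, and skeletal muscle markers to 10.05 to 60.9 CPM and 10.8 to 5017 CPM in the same groups. The part of attached tissue in the levels of the chemokines was not tested.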

How the data were processed

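Polyadenylated RNA of pooled 5 µm artery sections was amplified by a Smart-seq2 protocol, without strand or molecular identifiers, per the labels' protocols. The deposited table held read counts per gene symbol (55359 rows), made by the authors from reads trimmed with Trim Galore 0.6.4 and cutadapt 1.18 and aligned with STAR 2.5.2b to GRCm39, per the submitters' processing notes. The counting program and its annotation are not given in the sources used here. The authors also deposited variance-stabilised log2 values for 9578 genes, used only as an alternative input.

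A row with no name (at most 0.00257% of a library's counts) and 2 reporter rows were left out. Counts were tested with edgeR 4.0.16 (TMM, filterByExpr with a minimum count of 10, quasi-likelihood) in R 4.3.3, in 1 fit of 16 libraries with 12 residual degrees of freedom and Benjamini-Hochberg adjustment over 10634 genes. CPM used the edgeR library sizes, which are totals of the tested genes times the TMM factor. Alternatives were DESeq2 1.42.0, limma 3.58.1 (voom, and the deposited log2 values), DESeq2's size factors, other filters, the libraries of the compared groups alone, and each library left out. The script was checked on simulated counts for Mif loss at 24 weeks. Of 50 genes changed 4-fold it recovered 2%, and of 50 changed 16-fold 14%. At 64-fold it recovered 60% and at 256-fold 70%. At each fold it also called 2 genes that had been left unchanged. A count of 0 members passing therefore does not show that levels were the same.

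The members, gene lists and tests were chosen with earlier results of these data known. Every member is counted, and 1 receptor is not reported here. Values per library are given for tested members that passed a test, had groups that did not overlap, were among the 8 ligands and 5 receptors of highest mean CPM, or had 1 of the 3 smallest p-values of a comparison. A separate mouse is named for each library. Correlations used log2(CPM + 1), 100000 permutations and a smallest possible p of 1e-05. Exonic lengths and gene order came from GRCm38 annotation, which is not the build of the counts. An NF-kB core was also searched in the promoters and is not reported here. Reads are not independent molecules, and the number of mice limits the precision.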

Additional observations from a re-analysis of the deposited data

Results flagged for a closer look

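In 52 groups of 4 libraries (13 members in 4 groups), the highest or lowest library was compared with the others on the log2(CPM + 1) scale, and 2 stood apart by Dixon's ratio, where chance alone flags about 1 in 20 groups. Ccl8 was at 232 CPM in library 1 of the 24-week Apoe-/-Mif-/- arteries, while the other 3 lay between 32.1 and 39.4 CPM. Cx3cl1 was at 115 CPM in library 4 of the 24-week Apoe-/- arteries, the library with T cell and thymocyte markers, while the other 3 lay between 299 and 329 CPM.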

How the results depend on the processing

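No paired analysis was possible because the labels name a mouse for each library and give no replicate number or litter that groups share. The number of members passing was 0 in every comparison with each library left out, with the 2 libraries under 1000000 counts left out (an alternative added after seeing the data), and with the other scaling, voom and the deposited log2 values. It was 1 for Mif loss at 24 weeks and 1 for the difference between durations with no filter on low counts (Ccr9, high in 1 library). With DESeq2 it was 2 for Mif loss at 42 weeks, 1 for 42 against 24 weeks in Apoe-/- arteries and 2 for the difference between durations, as named above, and DESeq2 called 207, 902, 372, 562 and 546 genes in all where edgeR called 5, 0, 0, 13 and 73, in the order Mif loss at 24 and 42 weeks, 42 against 24 weeks in Apoe-/- and in Apoe-/-Mif-/- arteries, and the difference. The cause was not tested. Medians over the tested members kept their sign under the alternatives for Mif loss at 24 weeks (0.30 with no filter), for 42 against 24 weeks in Apoe-/-Mif-/- arteries (-0.49 with size factors, -0.65 with no filter, -0.50 with DESeq2) and for the difference (-0.75 with no filter, -1.99 without the shallow libraries). For 42 against 24 weeks in Apoe-/- arteries the median was 1.26 with size factors, 1.25 with DESeq2, 0 with no filter and -0.18 with voom. Size factors moved the median of all genes to 0.28 for Mif loss at 42 weeks, 0.16 for time in Apoe-/- and 0.54 for time in Apoe-/-Mif-/- arteries. With each library left out, the medians ran from -1.06 to 0.12 for Mif loss at 42 weeks, from -1.91 to -0.73 for time in Apoe-/-Mif-/- arteries and from -2.09 to -0.97 for the difference. The 42-week log2 fold change of Ccl5 ran from -4.98 to 0.72, the last without Apoe-/- library 4, whose removal left both genotypes near the worth of a few counts. Low counts limit the receptors most.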
